A study of Mus musculus with 76 samples.

Results

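The 9 genes described here belong to the innate sensing and alarmin systems of the lung. Cd14, Tlr4, Ly96 and Lbp form the chain that detects bacterial lipopolysaccharide, Tlr2 detects bacterial lipopeptides, Il33 is an alarmin, Lcn2 and Saa3 are secreted defence proteins, and Cebpd is a transcription factor of acute phase responses. They were picked by gene symbol from the 20710 genes tested, and each is represented by its array feature with the highest mean over all 76 arrays. The list was drawn up without a threshold, with differences between 8 and 3 months and with smoke on these same arrays already known. Values for time and smoke are therefore a description of these genes. The p-values printed with them come from limma fits over all genes with Benjamini-Hochberg adjustment, and they are no evidence for the list as a list.

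Lipopolysaccharide is bound by the secreted protein Lbp, handed to Cd14 at the cell surface, and presented to Tlr4 with its partner Ly96 (also called MD-2), which signals through adaptor proteins to NF-kB. Il33 is kept in the nucleus of epithelial and stromal cells and released when they are damaged. In the lung, macrophages, monocytes and neutrophils carry Cd14, Tlr2 and Tlr4, while Lcn2 is made by both neutrophils and epithelium.

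Gene expression was measured on 76 single-colour Agilent arrays from microdissected lung tissue of 40 mice, 39 arrays from alveolar septa, the thin walls between air spaces, and 37 from vessels. Mice of the line C57BL/6-Noxo1(tm1881_17.2Arte) were labelled wild-type or knock-out for Noxo1, whose product organises the NADPH oxidase NOX1. Exposure began in week 12 and used 3R4F research cigarettes at 140 mg/m3 of particles, 6 hours daily and 5 days weekly. Other mice served as controls, and tissue was taken at 3 or 8 months. The group names do not say whether these months count from birth or from the start of exposure. Genotype, exposure, time and tissue gave 16 groups of 4 or 5 arrays: wild-type control, wild-type smoke-exposed, knockout control and knockout smoke-exposed mice, at both times and in both tissues. All groups shared housing, microdissection and RNA amplification, 35 of the 40 mice gave both septa and vessels, and mice at 8 months were also older than mice at 3 months. The sources used here give neither zygosity, sex, the tissues in which the deletion acts nor array batches. Time, age and any batch of dissection or hybridization that ran with time cannot be told apart.

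Signals are log2 values, on which a difference of 1 is a doubling. The number of arrays limits the precision. Each array was correlated with every other array of the same tissue, and its median r lay between 0.897 and 0.935 for septa and between 0.801 and 0.882 for vessels. The 1322 odorant and vomeronasal receptor genes, used as a guide to signal without expression, had a 95th percentile of 3.99, called the receptor limit below. Mouse 25 (wild-type control, 3 months) supplied 2 vessel arrays, which were averaged for tests within vessels and left 36 replicates. Of those 35 mice, mice 7 (knockout control) and 29 (wild-type control), both at 8 months, had an Xist signal above 8 in 1 tissue and not in the other, which goes against the shared mouse label, and each result was also computed without them. As a check of the tissue labels, smooth muscle markers were higher in vessels in 8 of 8 cases and type 1 pneumocyte markers lower in 7 of 7, while club and ciliated airway markers (6 of 8) and adipocyte markers (5 of 5) were higher in vessels too.

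Sequences before the gene starts are shown for 3 genes that the results turn on. Il33 and Lcn2 were higher at 8 months in septa, and Lcn2 and Saa3 had the highest correlation of any pair of the 9 genes in septa. The sequences are the 250 bases before each annotated start in RefSeq on GRCm38.p6, written 5′ to 3′ on the strand of the gene, and Il33 has a pair of starts. They were searched on both strands for the NF-kB motif, GGGA followed by any 4 bases and CC, which is held by 17.6% of 32851 promoters of this length, and for the C/EBP motif TTNNGNAA, held by 36.8%. Matches of the 2 motifs may overlap. Cebpd is itself a C/EBP factor. Capitals mark C/EBP matches.
Lcn2, chr2:32387740-32387989, minus strand: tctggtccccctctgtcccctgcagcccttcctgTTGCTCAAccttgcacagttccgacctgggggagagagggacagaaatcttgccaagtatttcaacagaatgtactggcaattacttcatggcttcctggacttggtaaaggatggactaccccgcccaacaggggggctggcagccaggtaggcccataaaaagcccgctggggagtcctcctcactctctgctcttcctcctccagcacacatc
Saa3, chr7:46715677-46715926, minus strand: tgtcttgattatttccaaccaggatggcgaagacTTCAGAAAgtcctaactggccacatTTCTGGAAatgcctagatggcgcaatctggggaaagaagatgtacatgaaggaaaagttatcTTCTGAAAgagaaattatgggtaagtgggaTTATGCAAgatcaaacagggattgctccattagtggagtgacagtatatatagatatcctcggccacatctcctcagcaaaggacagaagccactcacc
Il33, first start, chr19:29924863-29925112, plus strand: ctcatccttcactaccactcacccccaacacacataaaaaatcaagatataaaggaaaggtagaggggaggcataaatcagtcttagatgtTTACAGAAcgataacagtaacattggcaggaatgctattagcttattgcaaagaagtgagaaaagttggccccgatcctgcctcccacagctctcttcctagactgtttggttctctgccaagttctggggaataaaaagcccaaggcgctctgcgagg
Il33, second start, chr19:29945540-29945789, plus strand: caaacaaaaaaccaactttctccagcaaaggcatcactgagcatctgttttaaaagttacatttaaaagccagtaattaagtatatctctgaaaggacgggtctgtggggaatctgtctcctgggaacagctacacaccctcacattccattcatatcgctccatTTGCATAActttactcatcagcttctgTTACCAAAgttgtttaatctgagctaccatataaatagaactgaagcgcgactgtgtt
The match in Lcn2, TTGCTCAA, began 216 bases before the start. Saa3 held 4 matches, and the one nearest to the start, TTATGCAA, began 99 bases before it. At the second Il33 start, TTGCATAA and TTACCAAA began 85 and 58 bases before it, and none of these 4 windows held the letters of the NF-kB motif. In Tlr2, whose sequence is not shown, GGGAATTCCC of the NF-kB motif began 172 bases before the start. A match is a run of letters, not a measured binding site. Cebpd, Tlr4, Ly96 and Lbp had no entry in the table used, and the sequence before the start of Cd14 is not described here.

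Between 3 and 8 months in septa, 5 of the 9 genes were higher and none lower at an adjusted p under 0.05. In this comparison limma called 3.5% of all genes (725 of 20710), 2.23% as higher and 1.27% as lower. Tlr4 was 2.89-fold, Cd14 2.58-fold, Il33 2.07-fold, Lcn2 1.80-fold and Cebpd 1.73-fold higher, each as the mean over both genotypes and both exposures. The median difference of the 9 genes was 0.85 log2 units, beside 0.02 for all genes. Tlr2, Saa3, Ly96 and Lbp did not pass, and Ly96 was the gene with a value below 0. Because these are bulk samples, more cells of a type and more RNA per cell cannot be told apart.

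**Figure D1:**
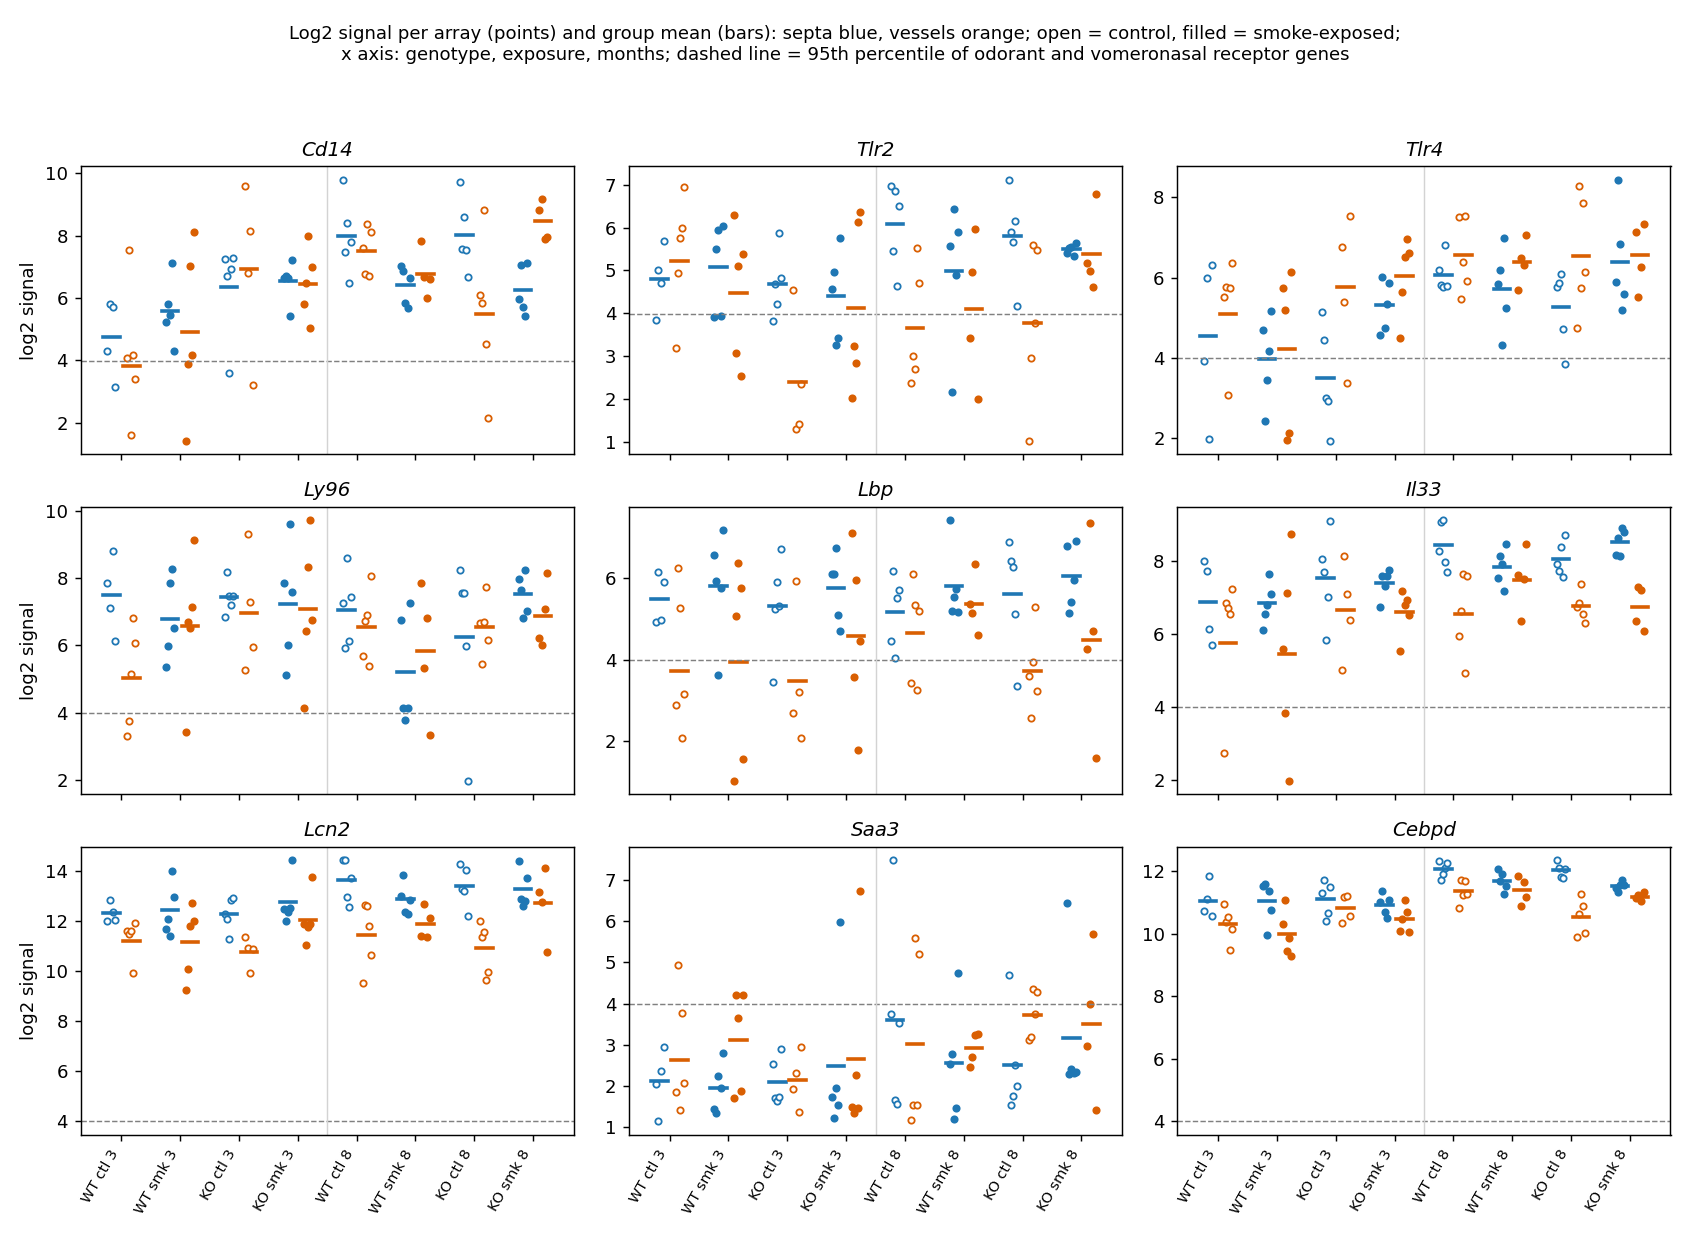
Log2 signal of the 9 genes on each array, with groups along the x axis by genotype, exposure and months; points are arrays (septa blue, vessels orange, controls open, smoke-exposed filled), bars are group means and the dashed line is the receptor limit of 3.99. Cebpd in septa lies between 9.97 and 11.85 at 3 months and between 11.26 and 12.36 at 8 months, and most Saa3 points lie below the dashed line.

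Among the receptors, Cd14, the co-receptor that hands lipopolysaccharide to Tlr4, ranged in septa from 3.15 to 7.28 with a median of 5.81 over 19 arrays at 3 months, and from 5.41 to 9.80 with a median of 7.05 over 20 arrays at 8 months. The ranges overlapped between 5.41 and 7.28. The mean difference was 1.37 ± 0.33 (SE, adjusted p 0.00977). In wild-type controls the 4 septa arrays at 3 months read 3.15, 4.31, 5.70 and 5.81, and the 5 at 8 months read 6.47, 7.48, 7.81, 8.40 and 9.80. Every array at 8 months was above every array at 3 months in this stratum, which held for 2.63% of all genes in either direction, and the difference of 3.25 ± 0.68 had an adjusted p of 0.0919. In knockout smoke-exposed septa the sign was the other way, at -0.27, so 3 of the 4 strata were above 0.

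Tlr4, the signalling receptor for lipopolysaccharide, ranged in septa from 1.92 to 6.33 with a median of 4.57 at 3 months, and from 3.85 to 8.45 with a median of 5.83 at 8 months. At 3 months 7 of the 19 arrays lay below the receptor limit, against 1 of 20 at 8 months, so the size of the difference is uncertain. The difference was 1.53 ± 0.36 (adjusted p 0.00877), with all 4 strata above 0 and values between 1.08 and 1.77. In knockout controls the arrays read 1.92, 2.92, 3.00, 4.45 and 5.15 at 3 months, against 3.85, 4.73, 5.76, 5.88 and 6.09 at 8 months. These groups overlapped in 2 arrays at 3 months. A second feature for Tlr4 on the array gave 1.35, also past the threshold, and both features correlated at 0.92 over septa arrays, so they share the RNA of each array and are not independent.

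Ly96, the partner that Tlr4 needs to bind lipopolysaccharide, ranged from 5.11 to 9.60 with a median of 7.46 in septa at 3 months, and from 1.95 to 8.61 with a median of 7.14 at 8 months. The difference of -0.72 ± 0.42 did not pass (adjusted p 0.426, 95% confidence interval -1.57 to 0.13). Its residual SD of 1.46 in septa was above that of 96.3% of all genes. Lbp, which binds lipopolysaccharide in solution, had medians of 5.91 and 5.63 and a difference of 0.06 ± 0.33 (adjusted p 0.957, interval -0.60 to 0.73). The components of 1 receptor chain thus had unlike values over time, with Cd14 and Tlr4 past the threshold and Ly96 and Lbp not, and the differences between the genes were not tested.

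Tlr2, the receptor for bacterial lipopeptides, ranged from 3.26 to 6.03 with a median of 4.70 in septa at 3 months, and from 2.15 to 7.12 with a median of 5.61 at 8 months. The difference of 0.85 ± 0.33 did not pass (adjusted p 0.166). Without replicate 2 of wild-type smoke-exposed septa at 8 months, the array at 2.15, it was 1.03 and passed (adjusted p 0.0438). Tlr2 has 10 features on the array with mean signals from 4.34 to 4.69, which serve as repeat measurements of the same RNA. All 10 were above 0 for time in septa, with differences from 0.56 to 1.14, of which 1 passed, and the mean of the 10 gave 0.83 ± 0.30 (adjusted p 0.129). Within an array the 10 features had a median SD of 0.47 log2 units in septa and 0.60 in vessels.

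**Figure D2:**
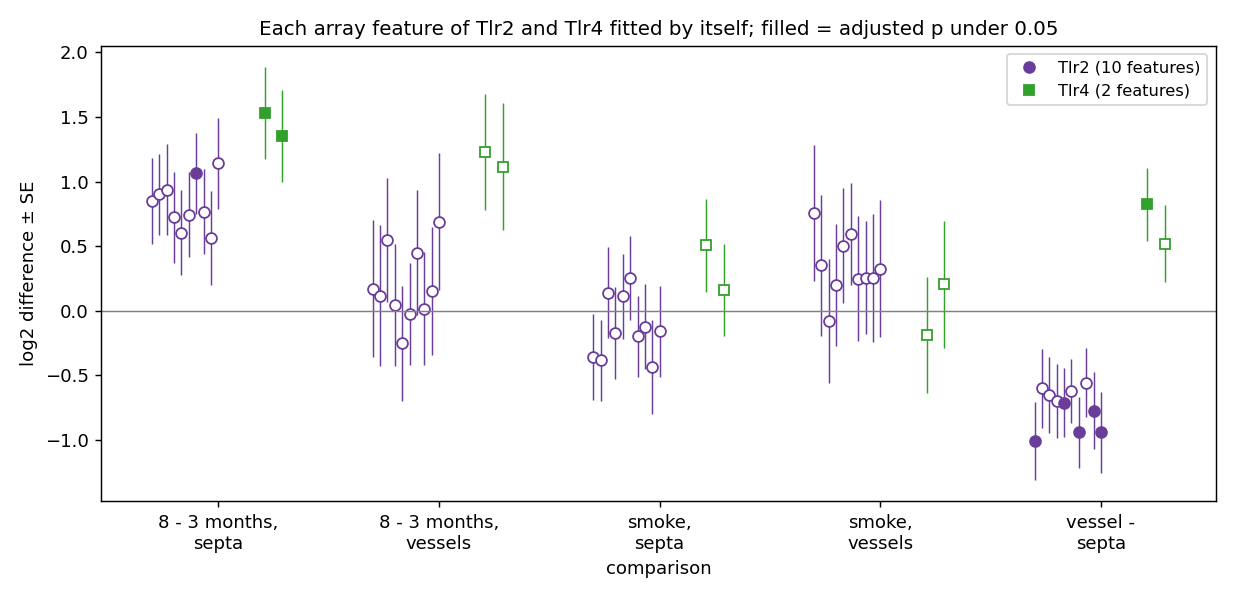
Log2 difference ± SE of each array feature of Tlr2 (10, purple) and Tlr4 (2, green) in 5 comparisons, fitted feature by feature; filled symbols have an adjusted p under 0.05. For time in septa all 12 symbols are above 0, and for vessel minus septa all 10 Tlr2 symbols are below 0 and both Tlr4 symbols above 0.

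Il33, an alarmin of the interleukin-1 family, ranged in septa from 5.68 to 9.10 with a median of 7.32 at 3 months, and from 7.17 to 9.13 with a median of 8.14 at 8 months. Low values were missing at 8 months. At 3 months the knockout controls reached 9.10 and the other groups 7.65 to 7.99, while the groups at 8 months reached 8.47 to 9.13. The difference was 1.05 ± 0.22 (adjusted p 0.00372), with all 4 strata above 0. In knockout smoke-exposed septa the arrays read 6.75, 7.32, 7.58, 7.58 and 7.75 at 3 months and 8.13, 8.15, 8.64, 8.81 and 8.90 at 8 months. These groups did not overlap, as for 1.6% of all genes in either direction, and differed by 1.13 ± 0.44 (adjusted p 0.48). The value was 1.55 in wild-type controls, 1.01 in wild-type smoke-exposed mice and 0.52 in knockout controls.

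Among the secreted proteins, Lcn2, which withholds iron from bacteria by binding their siderophores, was bright on all arrays. In septa it ranged from 11.27 to 14.40 with a median of 12.36 at 3 months, and from 12.20 to 14.43 with a median of 13.08 at 8 months. The difference was 0.85 ± 0.22 (adjusted p 0.0213), with all 4 strata above 0, at 1.32 in wild-type controls, 1.11 in knockout controls, 0.52 in knockout and 0.45 in wild-type smoke-exposed mice. The call ended when the prior variance was fitted without a trend (adjusted p 0.0553). Saa3, an acute phase serum amyloid A protein made locally in mouse tissue, had medians of 1.94 and 2.37 in septa, both below the receptor limit. Its difference of 0.78 ± 0.44 did not pass (adjusted p 0.391), and its size is uncertain at this signal.

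Cebpd, a basic leucine zipper factor that is switched on early in acute phase responses, had the lowest adjusted p of the 9 genes for time in both tissues. In septa it ranged from 9.97 to 11.85 with a median of 11.07 at 3 months, and from 11.26 to 12.36 with a median of 11.80 at 8 months. The difference was 0.79 ± 0.13 (adjusted p 0.000225), with all 4 strata above 0. In knockout controls the arrays read 10.41, 10.65, 11.31, 11.50 and 11.73 at 3 months and 11.79, 11.82, 12.06, 12.09 and 12.36 at 8 months. These groups did not overlap, as for 1.4% of all genes in either direction. The values were 1.00 in wild-type controls, 0.90 in knockout controls, 0.65 in wild-type and 0.60 in knockout smoke-exposed mice. Cebpd had the least spread of the 9 genes, with a residual SD of 0.42 in septa, below that of most genes (8.6% were lower), and 0.49 in vessels.

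Each of the 5 calls in septa held in all 39 fits that left out 1 array. In 1 fit over the 76 arrays of both tissues, which shares the larger spread of the vessels, Tlr4 and Cebpd still passed, and Cd14 (adjusted p 0.174), Il33 (0.148) and Lcn2 (0.155) did not. Their differences were nearly the same in that fit, at 1.36, 1.05 and 0.85. An Xist signal above 8, a female pattern, was seen on 6 of 19 septa arrays at 3 months and 8 of 20 at 8 months, and with sex as a covariate all 5 calls stood.

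**Figure D3:**
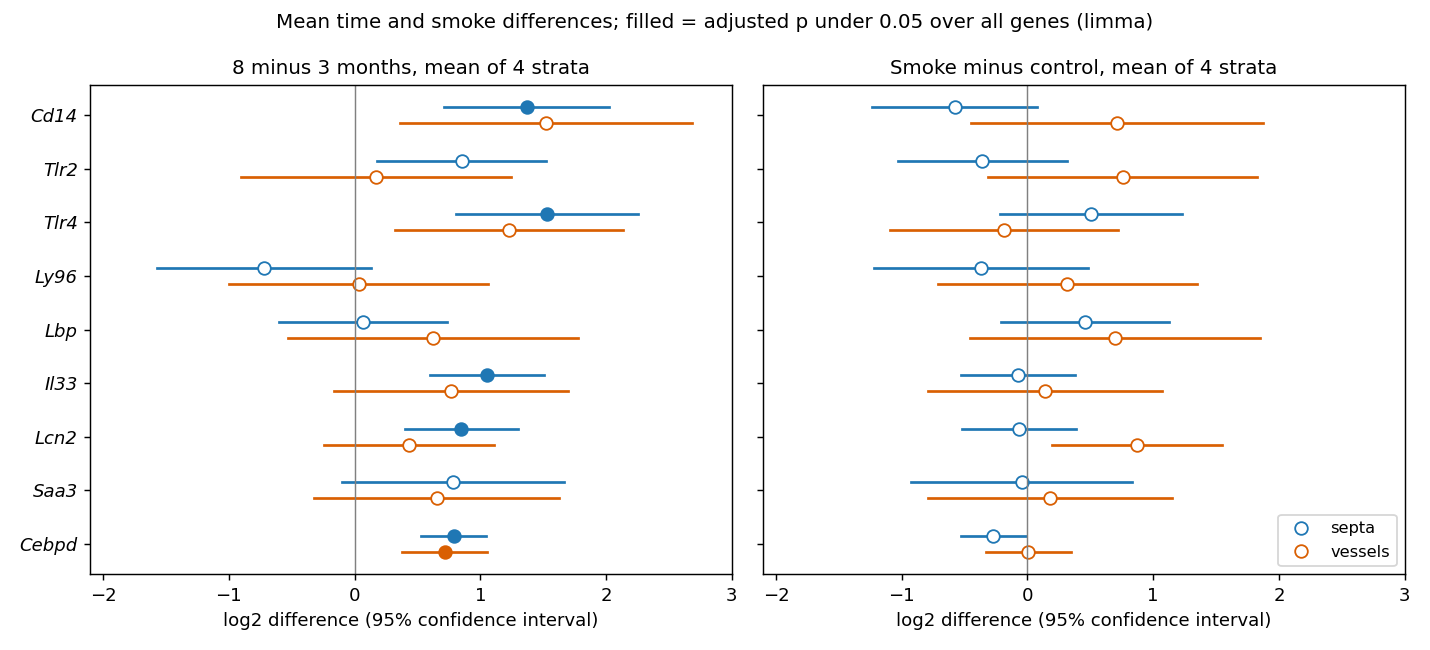
Mean log2 differences of the 9 genes for 8 minus 3 months (left) and smoke minus control (right), with 95% confidence intervals, septa in blue and vessels in orange; filled symbols have an adjusted p under 0.05 over all genes. On the left 5 blue symbols and 1 orange symbol are filled, and on the right none is.

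In vessels, 1 of the 9 genes passed between 3 and 8 months, and limma called 1.27% of all genes there, 1.02% as higher. Cebpd ranged from 9.28 to 11.19 with a median of 10.38 over 18 replicates at 3 months, and from 9.88 to 11.85 with a median of 11.21 over 18 at 8 months. The difference was 0.72 ± 0.17 (adjusted p 0.021), with 3 of 4 strata above 0 and knockout controls at -0.28. Without mice 7 and 29 it was 0.67 and no longer passed (adjusted p 0.0567). All 9 genes had values above 0, and those of Cd14 (1.52 ± 0.57, adjusted p 0.198) and Tlr4 (1.23 ± 0.45, adjusted p 0.181) were near their values in septa, with wider intervals of 0.36 to 2.68 and 0.32 to 2.14. The other values were 0.77 ± 0.46 for Il33, 0.65 ± 0.48 for Saa3, 0.62 ± 0.57 for Lbp, 0.43 ± 0.33 for Lcn2, 0.17 ± 0.53 for Tlr2 and 0.03 ± 0.51 for Ly96, with adjusted p from 0.475 to 0.99.

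The time difference itself was compared between tissues, and none of the 9 genes passed (lowest adjusted p 0.784). In that comparison limma called 0.0338% of all genes, and 8.47% had an unadjusted p under 0.05, none of the 9 among them. For Cebpd vessels and septa differed by -0.07 ± 0.20, with an interval of -0.48 to 0.34. For Cd14 the interval was -1.26 to 1.41, so a difference between tissues as large as the time difference itself lies within it. A call in septa and none in vessels therefore does not show that the tissues differ.

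Within single strata none of the 9 genes passed for time, and at most 0.0773% of all genes did, in wild-type smoke-exposed septa. The rate was 0.0338% in wild-type smoke-exposed vessels, 0.00483% in knockout control vessels and 0% in the other 5 strata. At an unadjusted p under 0.05, the genes in septa were Cd14, Tlr4 (1.53 ± 0.75), Il33, Lcn2 and Cebpd in wild-type controls, beside 7.5% of all genes. They were Cd14 (1.67 ± 0.64), Tlr4 (1.77 ± 0.71), Lcn2 and Cebpd in knockout controls (6.97% of all genes), Tlr4 (1.74 ± 0.71), Il33 and Cebpd in wild-type smoke-exposed mice (9.35%), and Il33 and Cebpd in knockout smoke-exposed mice (8.17%). Time was known when the genes were listed, so nothing is read from these counts.

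In vessels the genes at an unadjusted p under 0.05 were Cd14 (3.68 ± 1.14) and Cebpd (1.04 ± 0.33) in wild-type controls (5.53% of all genes), Cebpd (1.40 ± 0.33), Tlr4 (2.16 ± 0.89) and Il33 (2.03 ± 0.92) in wild-type smoke-exposed mice (8.84%), and Cebpd (0.71 ± 0.33) in knockout smoke-exposed mice (6.34%). In knockout controls none was, beside 8.27% of all genes. Cebpd in wild-type smoke-exposed vessels read 9.28, 9.46, 9.87, 10.29 and 11.07 at 3 months and 10.89, 11.19, 11.65 and 11.85 at 8 months, where 1 earlier array lay above the lowest later one. Its adjusted p was 0.113, and it passed in 1 fit over 76 arrays (adjusted p 0.0116) and without replicate 2 at 3 months, the array at 11.07 (difference 1.67, adjusted p 0.0196).

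Cd14 in wild-type control vessels read 1.61, 3.40, 4.07, 4.18 and 7.56 at 3 months, where 3.40 and 7.56 are both from mouse 25, and 6.70, 6.77, 7.60, 8.13 and 8.37 at 8 months. The array at 7.56 lay within the later group and the other 4 lay below it. In wild-type control septa Cd14 passed without replicate 3 of knockout control septa at 3 months, the array at 3.59 (adjusted p 0.043).

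Saa3 in knockout control vessels read 1.37, 1.93, 2.31 and 2.94 at 3 months and 3.11, 3.19, 3.74, 4.29 and 4.34 at 8 months. These groups did not overlap, as for 2.27% of all genes in either direction, and all but 2 of the arrays were below the receptor limit, so the difference of 1.60 ± 0.96 (adjusted p 0.686) is of uncertain size.

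**Figure D4:**
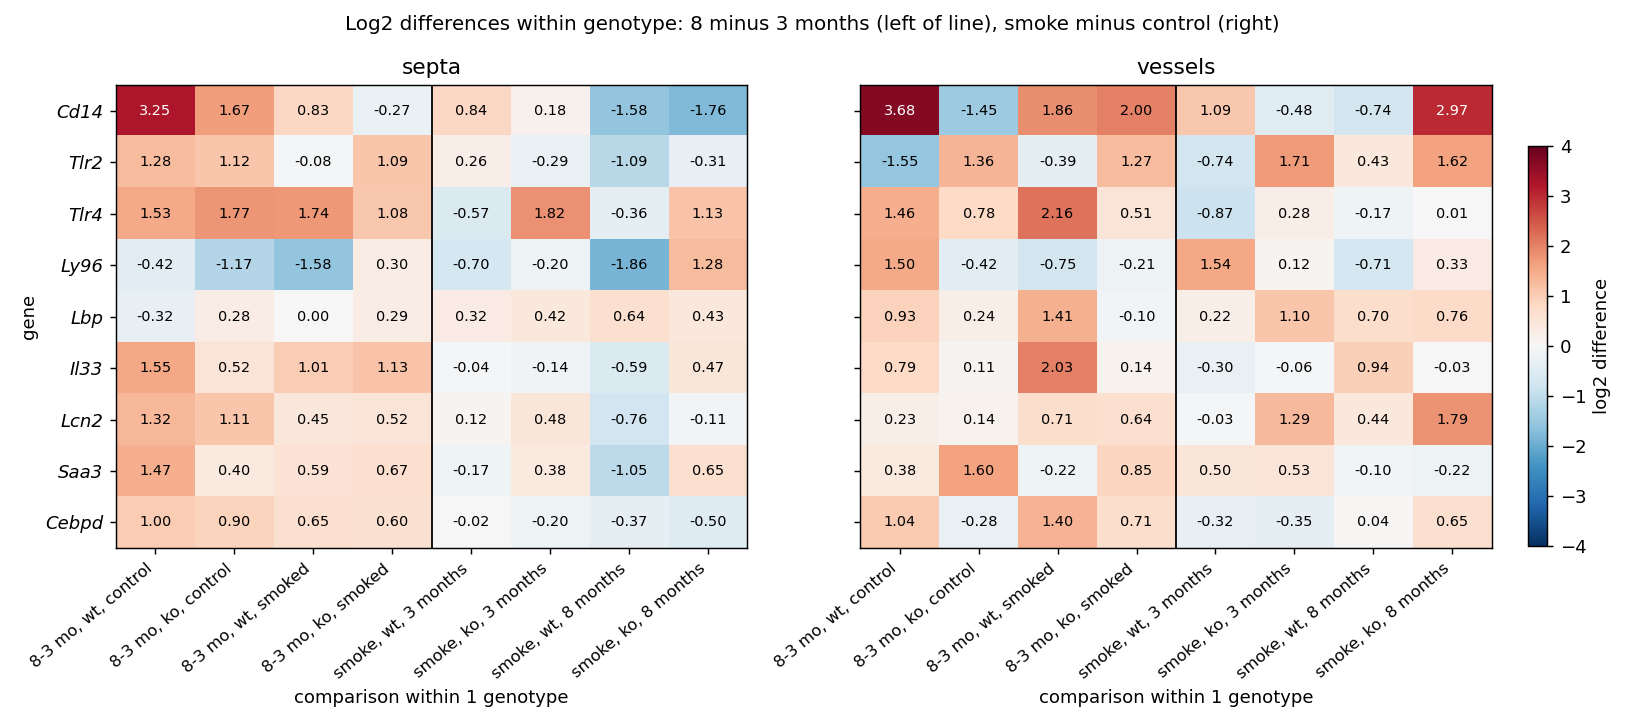
Log2 differences of the 9 genes within single strata, 8 minus 3 months in the 4 left columns and smoke minus control in the 4 right columns of each panel, with red for values above 0 and blue for values below 0. Tlr4, Il33, Lcn2, Saa3 and Cebpd are red in all 4 time columns of the septa panel, while the smoke columns mix both colours for most genes.

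Other genes of these systems, from lists drawn up with the earlier results known, were described in the same comparison. Of 9 other Toll-like receptors and the related Cd180 and Ly86 none passed, and of 14 adaptors and kinases Chuk, a kinase that frees NF-kB, was higher by 0.51 ± 0.15 (adjusted p 0.0478). Of 13 NF-kB subunits, inhibitors and feedback genes, the subunit Rel was higher by 1.17 ± 0.32. None of 12 other innate sensors passed. Of 11 other alarmins and their receptors S100a8 (1.32 ± 0.25) and S100a9 (0.75 ± 0.15), calcium-binding proteins abundant in neutrophils, were higher, and of 17 acute phase and interleukin-6 signalling genes Cebpb, the close relative of Cebpd, was higher by 0.44 ± 0.12. The medians of these 6 lists lay between -0.04 and 0.19, and none had a gene called lower in septa.

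In vessels the Toll-like receptor Tlr9, which senses DNA, was lower at 8 months, with a difference of -0.55 ± 0.14 (adjusted p 0.0477). Nfkbia, the inhibitor that holds NF-kB in the cytoplasm, was higher by 1.00 ± 0.26 (adjusted p 0.0476). No other gene of the 6 lists passed there. Irak4, Rigi and Il1rl1, the receptor for Il33, were not analysed here.

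Markers of other cell types and states moved with time beside these genes, and their part in the result was not tested. Of 9 neutrophil markers 3 were higher at 8 months in septa (Mmp8 2.15 ± 0.39, Retnlg 1.29 ± 0.28 and Il1r2 2.00 ± 0.46), 6 of 9 were above 0, and the mean level of the list ranged from 5.48 to 9.52 at 3 months and from 6.98 to 9.60 at 8 months. Of 10 alveolar macrophage markers 2 were higher (Plet1 1.97 ± 0.31 and Chil3 1.93 ± 0.38), 9 of 10 were above 0, and the list ranged from 4.84 to 7.66 and from 5.41 to 8.84. At 3 months 8 of these 10 markers had a mean above the receptor limit and at 8 months all 10 had. None of 8 monocyte and interstitial macrophage markers passed, and 2 of 8 were above 0.

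Epithelial and lymphocyte markers were among the genes called higher at 8 months in septa too. Of 8 type 2 pneumocyte markers Lyz1 (0.57 ± 0.12) and Sftpa1 (0.37 ± 0.09) were higher, 6 of 8 were above 0, and the list ranged from 9.90 to 10.81 at 3 months and from 10.23 to 10.97 at 8 months. Of 8 club and ciliated airway markers the club cell gene Scgb3a1 was higher (1.46 ± 0.38), 4 of 8 were above 0, and the list ranged from 5.97 to 7.89 and from 5.65 to 8.10. Of 5 T and NK cell markers the granzyme gene Gzma was higher (1.06 ± 0.22), 2 of 5 were above 0, and the list ranged from 6.09 to 8.00 and from 5.46 to 8.07. The part of these cells in the time differences of the 9 genes was not tested.

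Of 8 glucocorticoid-induced genes 4 were higher at 8 months in septa (Klf9 0.89 ± 0.17, Fkbp5 0.94 ± 0.23, Errfi1 0.73 ± 0.19 and Zbtb16 1.10 ± 0.30), all 8 were above 0, and the list ranged from 8.48 to 10.59 at 3 months and from 9.80 to 11.08 at 8 months. In vessels all 8 were above 0 as well, 2 passed (Ddit4 1.26 ± 0.30 and Tsc22d3 0.39 ± 0.10), and the list ranged from 8.47 to 10.07 and from 9.43 to 10.62. Cebpd is itself a known glucocorticoid target, and the part of glucocorticoids in the time differences of the 9 genes was not tested. None of 11 handling stress and immediate early genes passed in either tissue. In vessels Mmp8 (3.43 ± 0.69) and Retnlg (3.09 ± 0.69) were the neutrophil markers that passed, out of 9. The mean level of the neutrophil list in vessels ranged from 3.84 to 7.97 with a median of 4.88 at 3 months. At 8 months it ranged from 4.50 to 8.63 with a median of 6.52, and its part in the time values of the 9 genes was not tested. Of 8 endothelial markers listed for capillaries Cdh5 alone passed there (0.73 ± 0.16). The mean level of that list had a median of 9.32 over vessel arrays at 3 months and 9.33 at 8 months.

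With smoke none of the 9 genes passed an adjusted p of 0.05, in septa, in vessels or in any of the 8 comparisons within 1 genotype, time and tissue. In the mean over genotypes and times limma called 0 of all 20710 genes in either tissue (0% in each). At an unadjusted p under 0.05 it was 1594 genes in septa (7.7%), Cebpd among them, and 1036 in vessels (5%), Lcn2 among them. Within the 8 comparisons limma called 1 gene in wild-type septa at 3 months (0.00483%) and 0 in the others. The lowest adjusted p of the 9 genes was 0.625 in septa and 0.975 in vessels. A female pattern was seen on 4 of 19 control and 10 of 20 smoke-exposed septa arrays, and on 3 of 19 control and 9 of 18 smoke-exposed vessel arrays, so smoke and sex were partly confounded. With sex as a covariate the count of calls stayed at 0 in both tissues.

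Within 1 genotype and time, the genes at an unadjusted p under 0.05 in septa were Cd14 and Ly96 in wild-type mice at 8 months (5.79% of all genes), Tlr4 in knockouts at 3 months (3.54%) and Cd14 in knockouts at 8 months (6.55%), and none in wild-type mice at 3 months (5.09%). In vessels they were Cd14 and Lcn2 in knockouts at 8 months (4.3%), and none in wild-type mice at 3 (6.12%) or 8 months (2.94%) or in knockouts at 3 months (6.2%). Smoke differences were known as well when the genes were listed.

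Cd14 had smoke values on both sides of 0. In septa at 8 months the wild-type controls read 6.47, 7.48, 7.81, 8.40 and 9.80 and the smoke-exposed mice 5.68, 5.85, 6.63, 6.88 and 7.03. The smoke-exposed arrays reached only into the lower end of the controls, and the difference was -1.58 ± 0.64 (adjusted p 0.787). In knockout septa at 8 months controls read 6.66, 7.53, 7.59, 8.60 and 9.73 and smoke-exposed mice 5.41, 5.73, 5.98, 7.07 and 7.12, a difference of -1.76 ± 0.64 (adjusted p 0.632). In knockout vessels at 8 months the order was the other way, with controls at 2.16, 4.51, 5.86, 6.11 and 8.83 and smoke-exposed mice at 7.89, 7.96, 8.82 and 9.19, a difference of 2.97 ± 1.14 (adjusted p 0.999). The highest control, from mouse 6, lay within the smoke-exposed group.

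At 3 months the smoke values of Cd14 in septa were 0.84 in wild-type and 0.18 in knockout mice. The smoke difference at 8 months minus that at 3 months was -2.18 ± 0.65 in septa, with an unadjusted p of 0.00173 and an adjusted p of 0.778. For this contrast limma called 0% of all genes, and 5.95% had an unadjusted p under 0.05. Over both times and genotypes Cd14 had -0.58 ± 0.33 in septa (interval -1.24 to 0.08) and 0.71 ± 0.57 in vessels (interval -0.45 to 1.87).

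Tlr4 in knockout septa at 3 months read 1.92, 2.92, 3.00, 4.45 and 5.15 in controls and 4.57, 4.75, 5.34, 5.88 and 6.02 with smoke, a difference of 1.82 ± 0.71 (adjusted p 0.999). The smoke-exposed arrays were all above the receptor limit and 2 of the 5 controls were. In wild-type septa the smoke values of Tlr4 were -0.57 at 3 months and -0.36 at 8 months, and the smoke difference in knockout minus that in wild-type septa was 1.94 ± 0.72 (adjusted p 0.999). For Ly96 the same contrast gave 1.82 ± 0.84 (adjusted p 0.999), and 3.8% of all genes had an unadjusted p under 0.05 in it. In vessels that share was 4.38% and none of the 9 genes was among them. Ly96 in wild-type septa at 8 months read 5.92, 6.12, 7.25, 7.43 and 8.61 in controls and 3.77, 4.13, 4.13, 6.75 and 7.26 with smoke, a difference of -1.86 ± 0.83 (adjusted p 0.844), with 3 of the smoke-exposed arrays below all controls. Tlr2 had a mean of -0.36 ± 0.33 with smoke in septa, and of its 10 features 3 were above and 7 below 0. In vessels its mean was 0.76 ± 0.53, and 1.33 with sex as a covariate (adjusted p 0.712). The means of Tlr4 were 0.51 ± 0.36 in septa and -0.19 ± 0.45 in vessels, and those of Ly96 -0.37 ± 0.42 and 0.32 ± 0.51. Lbp was above 0 in all 8 smoke comparisons, with values from 0.22 to 1.10, and its means of 0.45 ± 0.33 in septa and 0.69 ± 0.57 in vessels did not pass (adjusted p 0.78 and 0.986). With sex as a covariate the value in vessels was 0.15 (adjusted p 0.984).

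Il33 had smoke means of -0.08 ± 0.22 in septa and 0.14 ± 0.46 in vessels, with intervals of -0.53 to 0.38 and -0.79 to 1.07. A change with smoke in septa of more than 0.53 log2 units in either direction thus lies outside the interval, while in vessels a change of 1 log2 unit upward lies within it. Lcn2 had -0.07 ± 0.22 in septa and 0.87 ± 0.33 in vessels (interval 0.19 to 1.55, unadjusted p 0.0131, adjusted p 0.975). In knockout vessels at 8 months Lcn2 read 9.62, 9.95, 11.36, 11.55 and 12.00 in controls and 10.76, 12.74, 13.15 and 14.105 with smoke, where 3 of the 4 smoke-exposed arrays were above all controls. That difference was 1.79 ± 0.67 (adjusted p 0.999), and the smoke difference in vessels minus that in septa was 0.92 ± 0.40 (unadjusted p 0.0266, adjusted p 0.795), in a contrast with 0.00966% of all genes called and 6.18% at an unadjusted p under 0.05. Saa3 had -0.05 ± 0.44 and 0.18 ± 0.48.

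Cebpd was below 0 with smoke in all 4 septa comparisons, from -0.50 to -0.02, with a mean of -0.27 ± 0.13 (interval -0.53 to -0.01, unadjusted p 0.0398, adjusted p 0.625). In knockout septa at 8 months controls read 11.79, 11.82, 12.06, 12.09 and 12.36 and smoke-exposed mice 11.33, 11.45, 11.56, 11.56 and 11.70. These groups did not overlap, as for 1.06% of all genes in either direction, and the difference of -0.50 ± 0.25 had an adjusted p of 0.769. In vessels the mean was 0.01 ± 0.17. The smoke difference at 8 minus 3 months in vessels was 0.68 ± 0.33 for Cebpd (unadjusted p 0.0495, adjusted p 0.968), and 5.02% of all genes had an unadjusted p under 0.05.

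In the further lists no Toll-like receptor, adaptor, NF-kB gene, sensor, alarmin or acute phase gene passed for smoke in the mean of either tissue. Between genotypes none of the 9 genes passed (lowest adjusted p 0.979, with 0% of all genes called in each tissue and 3.98% in septa and 4.86% in vessels at an unadjusted p under 0.05). Cd14 had the largest genotype values, 0.61 ± 0.33 in septa and 1.08 ± 0.57 in vessels, knockout minus wild-type. Cebpd had -0.06 ± 0.13 and -0.01 ± 0.17, with intervals of -0.32 to 0.19 and -0.34 to 0.33. In septa Ly96 had 0.48 ± 0.42, Il33 0.38 ± 0.22, Lcn2 0.12 ± 0.22, Lbp 0.11 ± 0.33, Tlr4 0.03 ± 0.36, Saa3 0.01 ± 0.44 and Tlr2 -0.14 ± 0.33. In vessels Ly96 had 0.86 ± 0.51, Tlr4 0.66 ± 0.45, Il33 0.38 ± 0.46, Lcn2 0.18 ± 0.33, Saa3 0.09 ± 0.48, Lbp -0.37 ± 0.57 and Tlr2 -0.45 ± 0.53. Tlr2 and Cebpd were thus below 0 in both tissues, Lbp in vessels, and the others above 0.

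Vessels and septa differed in 6 of the 9 genes, in which 5 were lower and 1 higher in vessels. Earlier results of these data were known when the genes were listed, so these values are a description as well. For this contrast limma called 28.9% of all genes, 16.2% as lower and 12.7% as higher, so the count of 6 stands beside a high background. Lcn2 was lower in vessels in 31 of 35 mice with both tissues, by -1.34 ± 0.20 (adjusted p 1.21e-07). Cebpd was likewise lower in 31 of 35 mice, by -0.67 ± 0.10, and Il33 in 29 of 35, by -1.16 ± 0.25. The overall ranges of these genes overlapped between the tissues, with Lcn2 from 11.27 to 14.43 in septa and from 9.25 to 14.105 in vessels.

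Lbp was lower in vessels in 27 of 35 mice, by -1.36 ± 0.32 (adjusted p 0.000617), and lay above the receptor limit on 36 of 39 septa and 20 of 37 vessel arrays. Tlr2 was lower in 27 of 35 mice, by -1.01 ± 0.30 (adjusted p 0.00726). It lay above the receptor limit on 32 of 39 septa and 20 of 37 vessel arrays, so its differences in vessels are of uncertain size. All 10 Tlr2 features were below 0, from -1.01 to -0.55, of which 5 passed, and their mean of -0.75 ± 0.25 passed as well (adjusted p 0.0182). Tlr4 was the gene that was higher in vessels, in 23 of 35 mice, by 0.82 ± 0.28 (adjusted p 0.0199). That call ended with the mean of both Tlr4 features (0.67, adjusted p 0.0642), with the second feature (0.52, 0.195) and with mouse as a fixed factor (0.65, 0.115). Cd14 (-0.15 ± 0.33), Ly96 (-0.45 ± 0.33) and Saa3 (0.43 ± 0.33) did not pass, with intervals of -0.82 to 0.52, -1.11 to 0.22 and -0.23 to 1.08.

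Of the list of 9 other Toll-like receptors with Cd180 and Ly86, 6 genes were lower in vessels and none higher, among them Tlr13 (-1.68 ± 0.35), Tlr12 (-1.27 ± 0.26), Tlr1 (-1.23 ± 0.27) and Tlr6 (-1.20 ± 0.28); Tlr1 and Tlr6 pair with Tlr2 in recognising lipopeptides. Of 14 adaptors and kinases 4 were lower and none higher, namely the adaptor Myd88 (-0.98 ± 0.28) and Irak2 (-0.18 ± 0.05), Irak3 (-1.33 ± 0.37) and Map3k7 (-0.69 ± 0.20) of the kinase families. Of 13 NF-kB genes 2 were higher, the subunit Nfkb2 (0.67 ± 0.24) and the inhibitor Nfkbie (0.76 ± 0.29), and Zfp36 was lower (-0.44 ± 0.13). Of 17 acute phase genes Serpina3n was higher (0.76 ± 0.17) and 5 were lower, and 5 of 12 sensors and 4 of 11 alarmin genes were lower with none higher. These counts stand beside 16.2% of all genes lower and 12.7% higher.

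Markers of cell types differed between the tissues as well. Of 9 neutrophil markers 7 were lower in vessels with a median of -3.44, of 10 alveolar macrophage markers 6 were lower and 1 higher with a median of -1.21, and of 8 monocyte and interstitial macrophage markers 2 were lower and 3 higher with a median of -0.03. All 8 type 2 pneumocyte markers were lower. The part of these cells in the tissue differences of the 9 genes was not tested.

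Within groups, the genes whose signal ran most like that of each of the 9 were found among 11005 genes with a mean above the receptor limit, as the mean of the correlations in septa (39 arrays) and vessels (37 arrays) after the group means were removed. Arrays share quality and cell content, so these values are a description. Lcn2 ran most like Chil1, a chitinase-like secreted protein (r 0.70 in septa and 0.62 in vessels), then Abcg1 (0.48 and 0.66) and Cd164 (0.60 and 0.50). Cebpd ran most like Jmjd1c (0.64 and 0.61), Errfi1, a gene of the glucocorticoid list (0.72 and 0.50), and Top1 (0.67 and 0.47). Saa3 ran most like the complement gene C3 (0.73 and 0.36), Ccl6 (0.42 and 0.57) and Bcl2a1d (0.51 and 0.47), at signals that were mostly below the receptor limit. By rank (Spearman) these values were 0.51 and 0.33 for C3, 0.38 and 0.49 for Ccl6, and 0.51 and 0.28 for Bcl2a1d.

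Among the receptors, Tlr2 ran most like Clec7a, the receptor for fungal beta-glucan (0.68 and 0.49), Selplg (0.53 and 0.57) and Usp15 (0.63 and 0.41). Cd14 ran most like the lysosomal protease Ctss (0.50 and 0.55), Bcl7a (0.45 and 0.58) and Dgat2 (0.75 and 0.28). The nearest genes were Ensa, Deptor and Gtf2h2 for Tlr4 (mean r 0.47, 0.43 and 0.43), and Fbxo6, Adssl1 and Chmp7 for Ly96 (0.56, 0.47 and 0.47). They were Iqce, Abhd4 and Atpif1 for Lbp (0.49, 0.47 and 0.47) and Npm3, Rnf14 and Dkk3 for Il33 (0.53, 0.51 and 0.51).

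Among themselves the 9 genes were weakly correlated within groups, with a median r of 0.13 over their 36 pairs in septa and 0.06 in vessels. Lcn2 with Saa3 had the highest r in septa, 0.64, and 0.34 in vessels, with Saa3 above the receptor limit on 5 of 39 septa and 10 of 37 vessel arrays. Cd14 with Lcn2 had 0.56 in septa and 0.29 in vessels. Tlr4 with Lbp had the lowest value in vessels, at -0.58, and 0.06 in septa.

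Saa3 was near background on most arrays and high on a few. It exceeded the receptor limit on 15 of 76 arrays, 5 of septa and 10 of vessels, from 11 mice. In 4 mice it did so in both tissues. Mouse 15, a knockout smoke-exposed mouse at 3 months, read 5.97 in septa and 6.73 in vessels, while the other 4 septa arrays of its group read 1.23, 1.55, 1.73 and 1.94. Mouse 16, a knockout smoke-exposed mouse at 8 months, read 6.42 and 5.69, and the other septa arrays of its group lay between 2.29 and 2.40. Mouse 27, a wild-type control at 8 months, read 7.48 and 5.20, and mouse 6, a knockout control at 8 months, read 4.69 and 4.34.

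The same mice were high for Lcn2 in septa, and so were some others. The highest septa array for Lcn2, at 14.43 in wild-type controls at 8 months, was from another mouse, with Saa3 below the receptor limit. Wild-type smoke-exposed septa at 3 months reached 14.00 for Lcn2, with Saa3 below that limit on all 5 arrays. Mouse 15 had 14.40 in septa, where the next array of its group had 12.52, and 13.73 in vessels, where the next had 11.86. Mouse 16 had 14.36 in septa and 14.105 in vessels, the highest of its group in each tissue. Mouse 27 had 14.42 in septa and 10.64 in vessels, so its vessels were not high. In knockout controls at 8 months, the group of mouse 6, the vessel arrays reached 12.00. Both exposures are represented among these 4 mice, with 2 smoke-exposed mice and 2 controls, and 3 of the 4 were taken at 8 months.

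**Figure D5:**
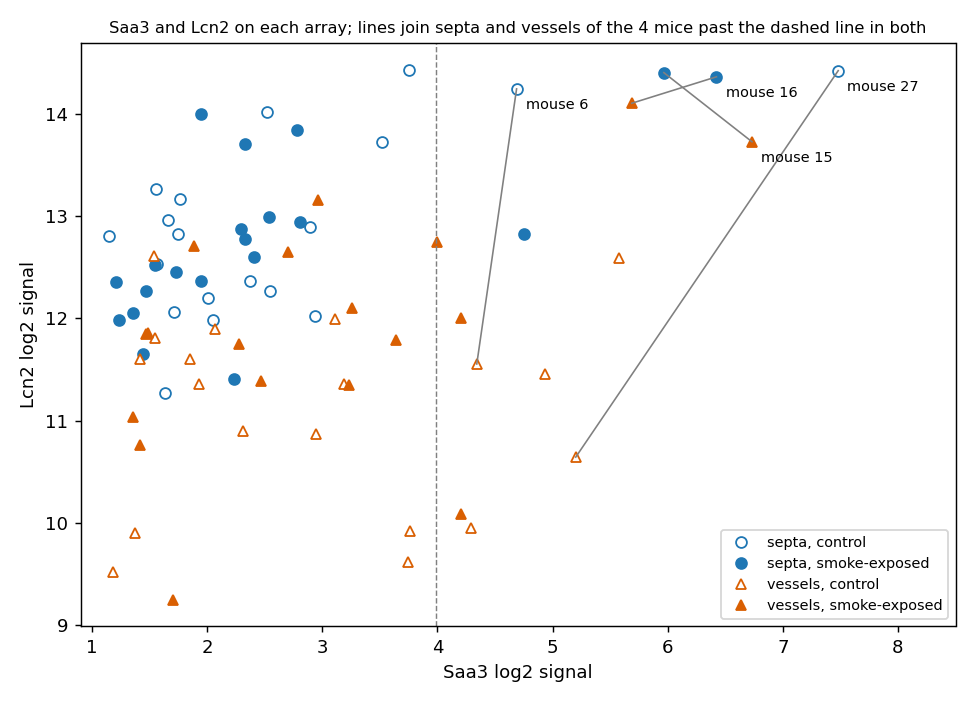
Log2 signal of Saa3 (x axis) against Lcn2 (y axis) on each of 76 arrays, septa as blue circles and vessels as orange triangles, controls open and smoke-exposed filled; the dashed line is the receptor limit of 3.99 and grey lines join the tissues of the 4 mice past it in both. All 4 of these mice have a septa Lcn2 signal between 14.25 and 14.42, near the top of the plot.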

How the data were processed

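The deposited values are log2 signals of 62976 features of a single-colour (Cy5) Agilent mouse array, made by the submitters after amplification of RNA from microdissected lung tissue, per the labels' protocols. Limma is named in the submitters' processing notes. How background was corrected is not stated in the sources used. The quartiles of the 76 arrays differ by at most 0.0024, so the values were already quantile normalized and were used as deposited. The submitters left out 4 arrays without signal.

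Features were named through the platform annotation and updated by accession (29050 of 31465 with a symbol matched). Per gene the feature with the highest mean over all arrays was used, and 671 features with an empty cell were left out, which gave 20710 genes.

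Septa and vessels were fitted separately (limma 3.58.1, R 4.3.3), with 8 group means, a trended eBayes prior, Benjamini-Hochberg adjustment over all genes and a threshold of 0.05. Tissues were compared in 1 fit over 76 arrays with mouse as a random block (consensus correlation 0.0262). Errors are SE of the fit, and intervals are 95% confidence intervals. The scripts were tested on simulated data.

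All 9 genes are named in every mean comparison. Within 1 genotype and time they are named at an unadjusted p under 0.05. Up to 4 genes per further list are named by adjusted p, and for likeness the 3 genes with the highest mean r. The values by stratum of other genes are given where groups did not overlap. The members and lists were chosen with earlier results of these data known.

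Alternatives were other features per gene, array weights, no trend, another normalization, a filter on dim genes, sex, mouse or replicate number as terms, other sets of arrays and leaving out each array. Replicate numbers count the arrays of a group, and no label ties them to a batch. Between groups of the same tissue, arrays with the same number had a mean correlation of deviations of 0.0181 (255 pairs). For arrays with other numbers it was -0.0045 (1008 pairs). These means cannot show that no batch ran with the numbers.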

Additional observations from a re-analysis of the deposited data

Results flagged for a closer look

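Of 144 combinations of gene and group, 9 held 1 array far from the others by Dixon's test, beside 1 in 20 that chance gives. The count is near that rate, and some of the 9 share a mouse or an array, so they are listed as a description. Saa3 gave 3 of them, all in knockout smoke-exposed mice: 5.97 in septa at 3 months, where the next array read 1.94, 6.73 in vessels of the same mouse 15, where the next read 2.28, and 6.42 in septa at 8 months in mouse 16, where the next read 2.40. Lcn2 was far above its group in mouse 15 as well, at 14.40 in septa at 3 months with the next at 12.52.

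Low arrays were found in controls at 3 months. Cd14 in knockout septa read 3.59 in mouse 3, with the next at 6.72. In wild-type vessels, with the arrays of mouse 25 averaged, Il33 read 2.72 (next 6.54) and Tlr2 read 3.18 (next 5.76), both on the array of mouse 23, and Lcn2 read 9.92 in mouse 24 (next 11.60). Lbp was high on 1 array of wild-type smoke-exposed septa at 8 months, at 7.44, with the next at 5.74. The cause of these values was not tested.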

How the results depend on the processing

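Over 76 differences of the 9 genes, 803 alternative values kept direction and side of the threshold in 772 cases, and 290 of 293 counts stayed within 1.5 times. Most of these differences had not passed and most counts were 0 to begin with, so these totals say little about how firm the calls are. Of the other alternative values 13 ended a call, 2 gave a new one and 16 turned sign. The number of the 9 genes called for time in septa was 5 and fell to 2 in 1 fit over 76 arrays, and in vessels it was 1 and became 0 without mice 7 and 29; for wild-type smoke-exposed vessels it went from 0 to 1 in the joint fit. Leaving out 1 array gave 5 to 6 for time in septa, and 0 to 1 for time in wild-type control septa and in wild-type smoke-exposed vessels. With the replicate number as a block the counts were 5 for time in septa, 1 for time in vessels and 0 for smoke and genotype, and no call count changed. The cause of these changes was not tested.

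Values that turned sign were small and none had passed. With smoke in septa Saa3 became 0.020 with array weights and 0.087 with sex as a covariate, and Tlr2 became 0.14, 0.11 and 0.25 with its features of rank 3, 5 and 6 by mean signal. With smoke in vessels Cebpd became -0.014 with array weights and -0.019 with sex, Il33 became -0.0066 with sex, Tlr2 became -0.079 with its feature of rank 3, and Tlr4 became 0.0079 with the mean of its features and 0.21 with its second feature. Over time Lbp in septa became -0.0071 without mice 7 and 29, Ly96 in vessels became -0.060 with repeated quantile normalization and -0.054 without those mice, and Tlr2 in vessels became -0.25 and -0.025 with its features of rank 5 and 6.

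With sex as a covariate other smoke values, none of which passed either way, moved by over 1.5 times: in vessels Lbp from 0.69 to 0.15, Tlr2 from 0.76 to 1.33, Saa3 from 0.18 to 0.39 and Tlr4 from -0.19 to -0.049, and in septa Tlr2 from -0.36 to -0.12, Ly96 from -0.37 to -0.20, Il33 from -0.08 to -0.16 and Lcn2 from -0.07 to -0.031.

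Leaving out 1 array, the ranges that crossed 0 were, for smoke in septa, -0.18 to 0.022 for Il33 and -0.27 to 0.20 for Saa3, and, for smoke in vessels, -0.061 to 0.059 for Cebpd, -0.12 to 0.36 for Il33 and -0.077 to 0.35 for Saa3. For time they were -0.073 to 0.21 for Lbp in septa and -0.16 to 0.24 for Ly96 in vessels, and for tissue -0.26 to 0.0066 for Cd14. With single Tlr2 features the tissue difference did not pass for those of rank 2 (-0.60, adjusted p 0.136), 3 (-0.65, 0.0877), 4 (-0.70, 0.0569), 6 (-0.62, 0.0518) and 8 (-0.55, 0.111), and time in septa passed with the one of rank 7 (1.06, 0.0451). Signal limits Saa3, which was above the receptor limit on 15 of 76 arrays, so its fold sizes are uncertain.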
